A study of Mus musculus with 28 samples.

Results

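The genes described here are 41 genes of mitosis and the kinetochore taken by symbol from a list of members, out of the 54429 genes of a raw count table. All 41 symbols were found in the table. The RNA came from O9-1, a line of mouse cranial neural crest, the embryonic cells that form much of the skeleton and connective tissue of the face. The 28 libraries fell into 8 groups, with 4 libraries per group at 21% O2 and 3 libraries per group at 0.5% O2. No transgene or gene deletion was named for any group. Proliferating cells were kept in serum medium conditioned by STO feeder cells, with non-essential amino acids, beta-mercaptoethanol, bFGF and LIF added. Chondrocyte cultures spent 3 days in osteoblast medium and then 7 days as micromasses on matrigel in medium with serum, an insulin, transferrin and selenium supplement, dexamethasone, TGF-beta3 and BMP-2. Osteoblast cultures spent 10 days in medium with serum, beta-glycerophosphate, dexamethasone and BMP-2. Smooth muscle cultures spent 3 days in DMEM with serum. Each of the 4 conditions was run at both oxygen levels, so culture time and medium differ between conditions but, as far as the labels give them, not between oxygen levels of 1 condition. The time in culture of proliferating cells and the start of low oxygen are not given in the labels. All libraries came from 1 cell line, and nothing in the labels says that replicates were separate cultures, so p-values measure only the spread between these libraries, which may be technical.

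Mitosis is driven by cyclin-dependent kinase 1 bound to cyclins A and B. Condensin compacts the chromosomes, kinetochores built on the centromere protein CENP-A catch spindle microtubules, and the spindle checkpoint holds back the anaphase-promoting complex until all chromosomes are attached. That complex, with its activator CDC20 and its ubiquitin-conjugating enzyme UBE2C, then destroys cyclin B and releases the sister chromatids, and the central spindle guides cytokinesis. The RNAs of these proteins rise together late in the cell cycle, when MYBL2 and FOXM1 bind their promoters with the MuvB complex, and are held low in resting cells, when the same complex joins RB-family proteins in the DREAM complex. In the neural crest, as in other progenitors, these RNAs are known as marks of dividing cells.

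Promoter sequence is shown first because MuvB-bound promoters are known for 2 short elements, the CCAAT box bound by NF-Y and the cell cycle genes homology region (CHR). RefSeq windows on GRCm38.p6 reaching from 250 bases before to 50 bases after the transcription start were found for 33 of the 41 members, in 35 windows of 300 bases. The motifs searched on both strands were CCAAT for the CCAAT box and TTTGAA or TTCGAA for the CHR. Other spellings were not searched. Matches may share bases, as CCAAT on opposite strands does at CCAATTGG in the Ube2c window, and each match was counted. A CCAAT box stood in 27 of the 35 member windows (77.1%) and in 37.4% of all 32851 windows. A CHR stood in 28 of 35 (80.0%) and in 19.2% of all windows. Both stood in 25 of 35 (71.4%) and in 7.52% of all windows. Ect2 and Prc1 had 2 overlapping windows each, which hold the same sites. Counted by gene, 25 of 33 members had a CCAAT box, 26 a CHR and 23 both. Birc5, Mybl2, Ncaph, Nuf2 and Nusap1 each had a window with neither motif. The 5 windows below are printed 5′ to 3′ along the gene, with motif matches in capitals. Ube2c and Smc2 had the largest and smallest change with oxygen in osteoblast cultures, Ccnb1 had a large change and no match to TTTGAA or TTCGAA, and Plk1 and Cdc20 carried both motifs close to the start.
Ube2c, chr2:164769679-164769978, plus strand: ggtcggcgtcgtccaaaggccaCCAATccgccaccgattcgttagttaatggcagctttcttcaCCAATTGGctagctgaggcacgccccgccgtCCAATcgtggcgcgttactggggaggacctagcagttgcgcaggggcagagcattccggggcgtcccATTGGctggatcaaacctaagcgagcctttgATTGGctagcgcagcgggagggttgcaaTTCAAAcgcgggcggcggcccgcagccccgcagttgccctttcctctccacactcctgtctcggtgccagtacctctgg
Ccnb1, chr13:100786437-100786736, minus strand: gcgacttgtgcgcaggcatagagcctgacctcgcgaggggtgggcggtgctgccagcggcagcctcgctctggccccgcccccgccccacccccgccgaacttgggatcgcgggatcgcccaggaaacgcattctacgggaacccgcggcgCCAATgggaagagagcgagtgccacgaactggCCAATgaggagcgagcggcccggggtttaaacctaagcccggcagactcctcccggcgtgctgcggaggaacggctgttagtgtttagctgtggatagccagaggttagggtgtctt
Plk1, chr7:122159185-122159484, plus strand: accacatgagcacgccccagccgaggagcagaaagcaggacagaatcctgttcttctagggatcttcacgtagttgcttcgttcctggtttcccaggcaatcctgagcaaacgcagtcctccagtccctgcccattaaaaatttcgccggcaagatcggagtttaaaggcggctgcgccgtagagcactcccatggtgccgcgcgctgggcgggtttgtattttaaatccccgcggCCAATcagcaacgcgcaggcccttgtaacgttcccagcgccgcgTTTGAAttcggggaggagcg
Cdc20, chr4:118437294-118437593, minus strand: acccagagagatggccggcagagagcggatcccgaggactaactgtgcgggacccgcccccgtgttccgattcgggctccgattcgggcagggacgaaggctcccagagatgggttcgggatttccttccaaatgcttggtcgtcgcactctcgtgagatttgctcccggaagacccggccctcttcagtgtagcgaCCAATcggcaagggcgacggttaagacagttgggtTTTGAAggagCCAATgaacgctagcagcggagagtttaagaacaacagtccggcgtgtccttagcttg
Smc2, chr4:52438971-52439270, plus strand: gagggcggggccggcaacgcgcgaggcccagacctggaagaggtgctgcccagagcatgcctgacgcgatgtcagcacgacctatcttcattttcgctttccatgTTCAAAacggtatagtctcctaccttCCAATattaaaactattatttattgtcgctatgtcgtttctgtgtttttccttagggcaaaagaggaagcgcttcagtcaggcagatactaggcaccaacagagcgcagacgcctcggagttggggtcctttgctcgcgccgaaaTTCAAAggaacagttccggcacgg
The Ube2c window held 6 CCAAT matches and 1 CHR, and the Smc2 window 1 CCAAT match and 2 CHR matches, so the members with the largest and smallest change both carried both motifs. A match is a description of these letters and not evidence of binding.

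Library totals lay between 19869271 and 64693346 counts. The 3 smooth muscle libraries at 0.5% O2 stood apart from all others. The mitochondrial ribosomal RNAs mt-Rnr1 and mt-Rnr2 took 11.6 to 13.3% of their counts against at most 0.0889% in the other 25 libraries, and their scaling factors were 0.505 to 0.533. They also had little of the RNAs that define smooth muscle: the 10 smooth muscle markers summed to 96.8 to 121 CPM (counts scaled to a library of 1000000) with Myocd and Actg2 at 0, against 3631 to 4098 CPM in smooth muscle libraries at 21% O2, so they are called below by their label. The neural crest markers Foxd3 and Sox10 were at 0 in proliferating cells at both oxygen levels, as was Ngfr, while the other 7 of the 10 crest markers were detected there. The 10 chondrocyte markers summed to 3204 to 9738 CPM in chondrocyte libraries at 21% O2 and to 907 to 1385 CPM at 0.5% O2, against 104 to 144 CPM in proliferating libraries at 21% O2. The 10 osteoblast markers summed to 3460 to 4089 CPM in proliferating, 6711 to 10512 CPM in osteoblast and 38605 to 47009 CPM in chondrocyte libraries at 21% O2. In osteoblast against proliferating libraries at 21% O2, 4 of 8 osteoblast markers tested were higher and 3 lower, where 40.9% of all genes were higher and 37.8% lower. The 10 smooth muscle markers summed to 3689 to 5231 CPM in these osteoblast libraries, so the osteoblast and chondrocyte groups are also called by their labels.

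The 41 members were most abundant in proliferating cells and lowest in osteoblast cultures at 21% O2. Levels are given in CPM after scaling by trimmed mean of M values (TMM). The summed level of the 41 members was 6277 ± 590 CPM (SD, n = 4) in proliferating cells at 21% O2 and 4658 ± 115 CPM (SD, n = 3) at 0.5% O2. In osteoblast cultures it was 253 ± 46.7 CPM (SD, n = 4) at 21% O2 and 1090 ± 115 CPM (SD, n = 3) at 0.5% O2. In chondrocyte cultures it was 1769 ± 361 CPM (SD, n = 4) at 21% O2 and 1071 ± 70.4 CPM (SD, n = 3) at 0.5% O2. In smooth muscle cultures it was 1382 ± 114 CPM (SD, n = 4) at 21% O2 and 2052 ± 118 CPM (SD, n = 3) in the libraries labelled 0.5% O2. In the order of means, libraries of neighbouring groups overlapped for smooth muscle at 0.5% O2 and chondrocyte at 21% O2, for chondrocyte and smooth muscle at 21% O2, and for osteoblast and chondrocyte at 0.5% O2. The other neighbours in the order did not overlap. By group mean, osteoblast at 21% O2 was the lowest of the 8 groups for 41 of 41 members, and proliferating at 21% O2 the highest for 40 of 41. The exception was Cenpf, a large kinetochore and nuclear matrix protein, which was highest in proliferating cells at 0.5% O2. As a share of all counts, the members took 0.734% in proliferating cells and 0.0277% in osteoblast cultures at 21% O2. In smooth muscle cultures that share was 0.177% at 21% O2 and 0.106% at 0.5% O2, the opposite order to the scaled CPM. In bulk RNA, fewer dividing cells and less of each RNA per cell cannot be told apart.

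**Figure D1:**
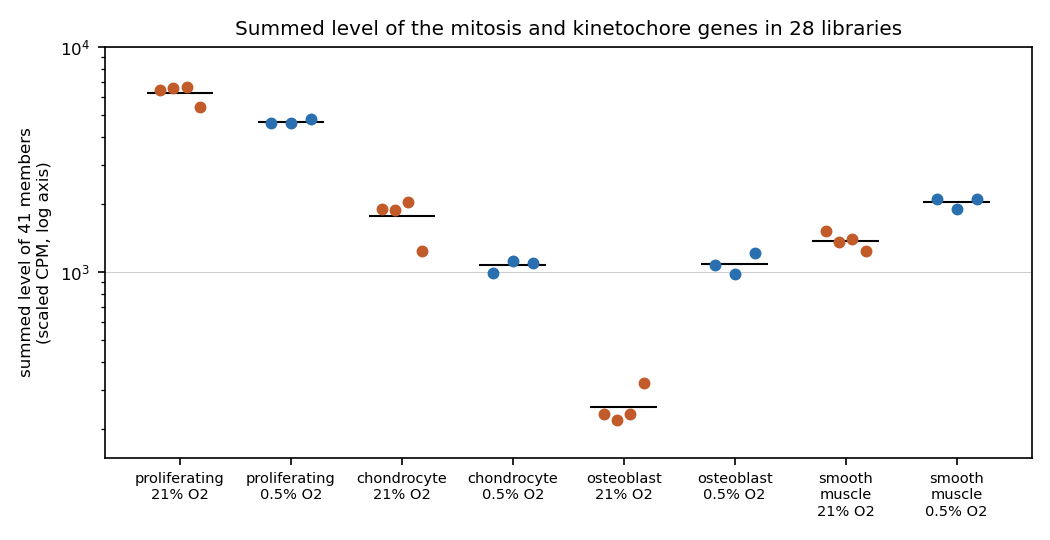
Summed level of the 41 members in each library (points, scaled CPM on a log axis) with the group mean (line), 21% O2 in orange and 0.5% O2 in blue. The 4 osteoblast libraries at 21% O2 lie between 221 and 322 CPM, below every other library.

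Within proliferating cells at 21% O2 the members differed in abundance when levels were divided by exon length. The lowest were the checkpoint kinase Ttk at 7.35 CPM per kilobase, the outer kinetochore protein Ndc80 at 8.24, the transcription factor Mybl2 at 9.14 and the kinetochore protein Spc25 at 9.42. The highest were Cdc20 at 88.6 CPM per kilobase, the condensin subunit Smc4 at 72.4, Ube2c at 69.5 and cyclin A2 (Ccna2) at 68.5.

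At 21% O2 all 41 members were lower in each of the 3 differentiated conditions than in proliferating cells. A gene was called at a Benjamini-Hochberg adjusted p under 0.05 in edgeR's quasi-likelihood test, adjusted over all genes tested, and all 41 members passed the filter on low counts in each comparison. In chondrocyte cultures 41 of 41 members fell, where 37.2% of all genes tested were called lower and 37.7% higher, with a median log2 fold change of -1.75. The largest fall was in Anln, the actin-binding anillin of the cleavage furrow, at -2.28 ± 0.11 (SE, adjusted p = 4.34e-09), and the smallest in Spc25 at -1.02 ± 0.12 (SE, adjusted p = 6.6e-06). In smooth muscle cultures 41 of 41 fell, against 38.9% of all genes lower and 40.8% higher, with a median of -2.17, from Mybl2 at -3.03 ± 0.12 (SE, adjusted p = 2.89e-12) to Spc25 at -1.08 ± 0.12 (SE, adjusted p = 1.65e-06). In osteoblast cultures 41 of 41 fell, against 37.8% of all genes lower and 40.9% higher, with a median of -5.07, from Ube2c at -6.57 ± 0.23 (SE, adjusted p = 9.64e-09) to Smc4 at -2.62 ± 0.08 (SE, adjusted p = 4.53e-09). As a share of the proliferating mean at the same oxygen level, the median member kept 28.2% in chondrocyte, 21.4% in smooth muscle and 2.85% in osteoblast cultures. These comparisons share the proliferating libraries, and osteoblast and chondrocyte cultures were also compared directly. There 41 of 41 members were lower in osteoblast cultures, against 28.6% of all genes lower and 31.1% higher, with a median of -3.24, from Ube2c at -4.47 ± 0.26 (SE, adjusted p = 1.48e-06) to Smc4 at -0.86 ± 0.08 (SE, adjusted p = 1.6e-05).

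The depth of the fall in osteoblast cultures left few reads for some members. Ube2c was measured at 187, 193, 188 and 154 CPM in proliferating cells and at 1.29, 1.54, 1.53 and 2.88 CPM in osteoblast cultures at 21% O2. Bub1, the checkpoint kinase that recruits other checkpoint proteins to the kinetochore, went from 88.5, 91.8, 99.3 and 71.4 CPM to 0.733, 0.513, 1.25 and 2.88 CPM, which were 13 to 90 reads. Mybl2 had 15 to 75 reads in these libraries. No osteoblast library at 21% O2 reached the lowest proliferating library for any of the 3 genes, as for 37.8% of all genes. Smc4, one of the pair of ATPase subunits common to both condensin complexes, kept the largest share, at 58.2, 56.7, 56.1 and 65.2 CPM against 387, 392, 398 and 331 CPM, or 15.7% of the proliferating mean.

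**Figure D2:**
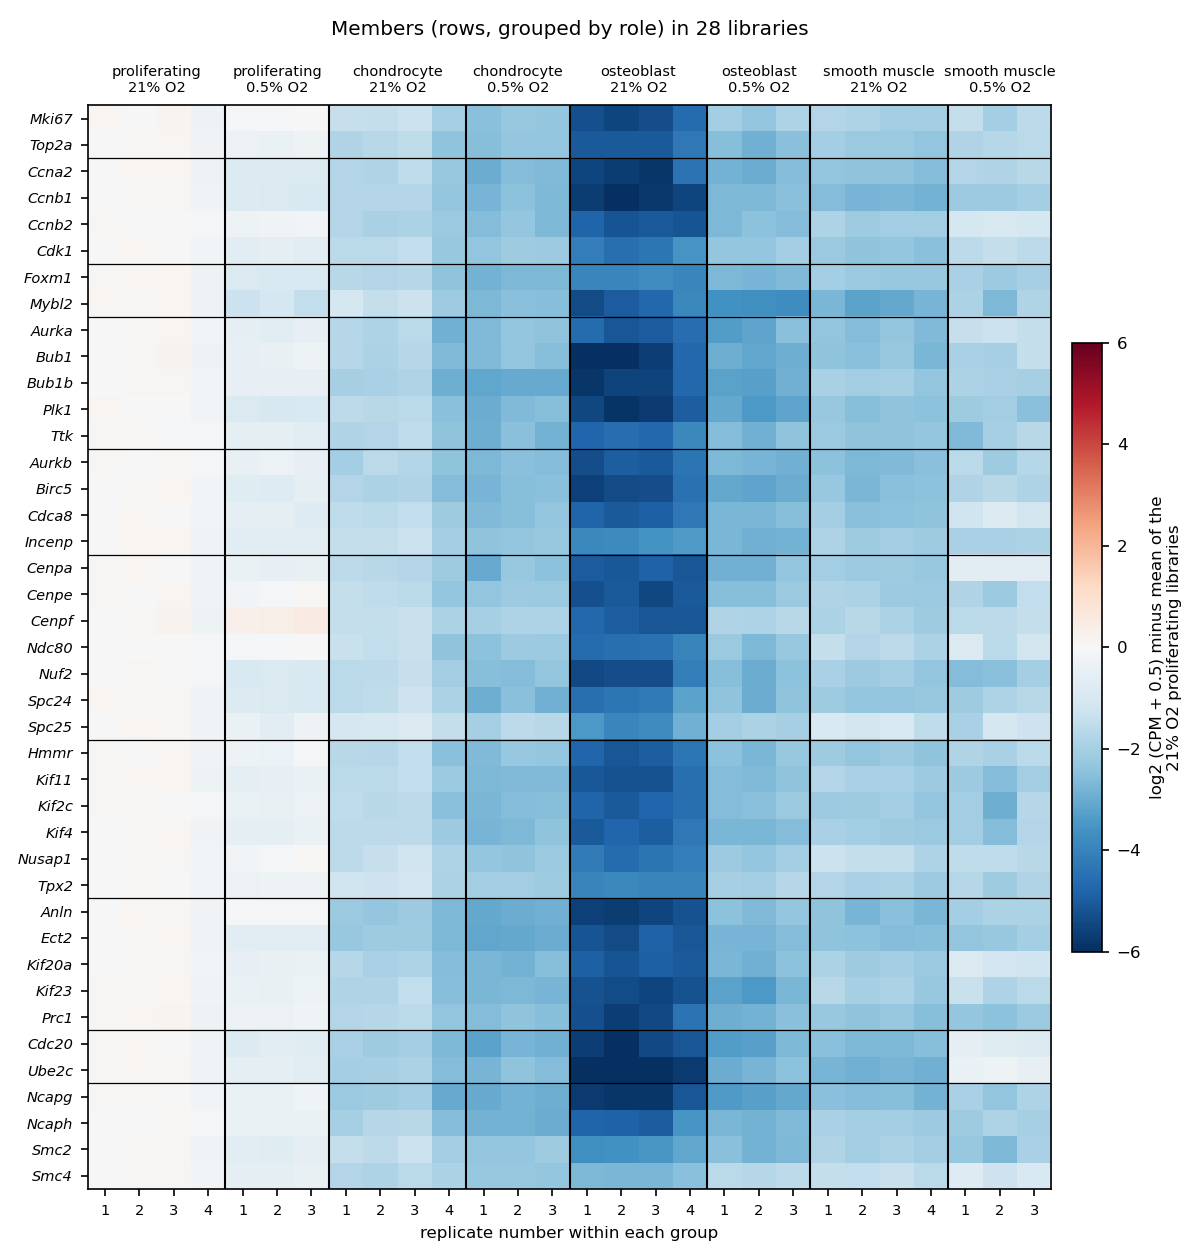
Level of each member (rows, grouped by role from the proliferation marker at the top to condensin at the bottom) in each of 28 libraries (columns), as log2 (CPM + 0.5) minus the mean of the 4 proliferating libraries at 21% O2. The osteoblast libraries at 21% O2 form the darkest block, and Smc4 is the palest row within it.

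At 0.5% O2 most members were also lower in the differentiated conditions than in proliferating cells. In chondrocyte cultures 41 of 41 members fell relative to proliferating cells at the same oxygen level, against 34.6% of all genes lower and 34.9% higher, with a median of -2.16, from Anln at -2.89 ± 0.06 (SE, adjusted p = 6.85e-13) to Spc25 at -1.34 ± 0.13 (SE, adjusted p = 9.74e-07). In osteoblast cultures 41 of 41 fell, against 35.1% of all genes lower and 36.2% higher, with a median of -2.22, from the condensin subunit Ncapg at -2.94 ± 0.10 (SE, adjusted p = 1.12e-12) to Smc4 at -1.13 ± 0.07 (SE, adjusted p = 8.57e-10). In the libraries labelled smooth muscle 38 of 41 fell, against 36.2% of all genes called lower, and 1 rose, against 33.8% called higher, with a median of -1.24. The member that fell most there was Prc1, which bundles microtubules of the central spindle, at -1.91 ± 0.09 (SE, adjusted p = 4.95e-09), and the one that rose was Ube2c at 0.31 ± 0.08 (SE, adjusted p = 0.00612). Cdc20, at 0.18 ± 0.09 (SE, adjusted p = 0.0994), and Cenpa, at -0.10 ± 0.08 (SE, adjusted p = 0.303), were not called. Without smooth muscle replicate 3 at 0.5% O2, 2 members were called higher. The call of Ube2c depended on scaling: with library size alone Ube2c was -0.97 and Cdc20 -1.10, and 41 members were called lower and 0 higher. The medians were then -2.52 in smooth muscle, -2.49 in chondrocyte and -2.45 in osteoblast cultures, while the medians of all genes were -1.35, -0.35 and -0.23. Relative to the median of all genes, the members stood at -1.17 in smooth muscle, -2.14 in chondrocyte and -2.22 in osteoblast cultures under both scalings, and Ube2c and Cdc20 were above the median of all genes under both. Scaling moves all genes of a comparison by about the same amount, so these distances could not differ between the scalings.

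Osteoblast and chondrocyte cultures, 3.24 apart in median log2 level at 21% O2, were close to each other at 0.5% O2. The median difference was -0.10, with 3 members higher in osteoblast cultures (29.0% of all genes) and 7 lower (28.6% of all genes), so neither share stood above the background. Mybl2 at -1.23 ± 0.18 (SE, adjusted p = 7.43e-05), Plk1, Aurka, Bub1, Birc5, Incenp and Smc2 were lower in osteoblast cultures. Smc4 at 0.66 ± 0.08 (SE, adjusted p = 1.57e-05), Anln and Ect2 were higher. The count of lower members was 4 without osteoblast replicate 2 at 0.5% O2 and 12 without osteoblast replicate 3.

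**Figure D3:**
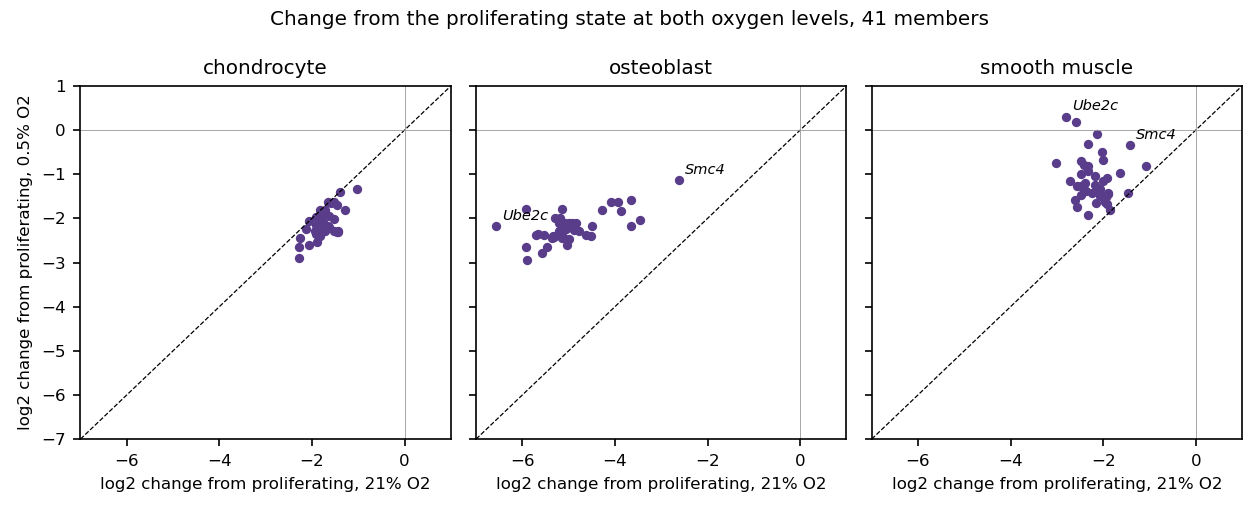
Log2 fold change of each member from the proliferating state at 21% O2 (x axis) and at 0.5% O2 (y axis) in 3 conditions, with the line of equal change dashed. Osteoblast points lie far above the line, from Ube2c (-6.57 at 21% O2, -2.18 at 0.5% O2) to Smc4 (-2.62 and -1.13), while chondrocyte points lie close to it.

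In proliferating cells most members were lower at low oxygen, by a small amount. At 0.5% O2, 35 of 41 members were lower than at 21% O2, against 32.3% of all genes, and 1 was higher, against 33.1%, with a median of -0.45. The largest fall was in Mybl2, from 45.1, 44.8, 45.1 and 34.4 CPM to 17.1, 20.2 and 14.6 CPM, at -1.24 ± 0.12 (SE, adjusted p = 1.87e-06). Foxm1, the other late cell cycle transcription factor among the members, went from 191, 198, 193 and 146 CPM to 99.6, 94.6 and 97.1 CPM, at -0.85 ± 0.09. The libraries of both oxygen levels did not overlap for either gene, as for 34.7% of all genes in that direction. The kinase Plk1 (-0.87 ± 0.07), the kinetochore proteins Nuf2 (-0.85 ± 0.05) and Spc24 (-0.84 ± 0.09), and Ccnb1 (-0.82 ± 0.07) followed. Cenpf rose, from 155, 159.6, 175 and 122 CPM to 189, 191 and 212 CPM, at 0.42 ± 0.10 (SE, adjusted p = 0.00338). Anln, Mki67, Cenpe, Ndc80 and Nusap1 were not called, with log2 differences between -0.05 and -0.00 and standard errors of 0.06 to 0.09.

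In chondrocyte cultures 32 of 41 members fell at 0.5% O2, against 11.8% of all genes called lower, and none rose, against 10.4% called higher. The median log2 fold change was -0.78, from Spc24 at -1.31 ± 0.19 (SE, adjusted p = 0.000548) to Cenpf at -0.40 ± 0.13 (SE, adjusted p = 0.0445). Spc24 was measured at 10.1, 10.6, 13.1 and 8.04 CPM at 21% O2 and 3.74, 5.12 and 3.88 CPM at 0.5% O2. Mybl2 again was among the largest falls, from 19.8, 15.3, 16.8 and 9.21 CPM to 5.99, 7.09 and 6.83 CPM, at -1.21 ± 0.23. Replicate 4 was the lowest of the 21% O2 libraries in both genes, and in all 41 members. Without it 41 members were called. Without replicate 1 or replicate 3 of the 0.5% O2 group, 20 and 19 were called.

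In osteoblast cultures the direction was the opposite: all 41 members were higher at 0.5% O2 than at 21% O2, against 27.0% of all genes called higher and 27.3% lower. The median log2 fold change was 2.41, and 39 of 41 members rose by at least 1 on the log2 scale, against 10.5% of all genes called at that size. The range ran from Smc2 at 0.81 ± 0.16 (SE, adjusted p = 0.00223) to Ube2c at 3.87 ± 0.26 (SE, adjusted p = 5.11e-06). The call of Mybl2 was lost when any 1 library other than osteoblast replicate 4 at 21% O2 was left out, with values between 0.95 and 1.25. The other 40 members stayed called with each library left out in turn.

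**Figure D4:**
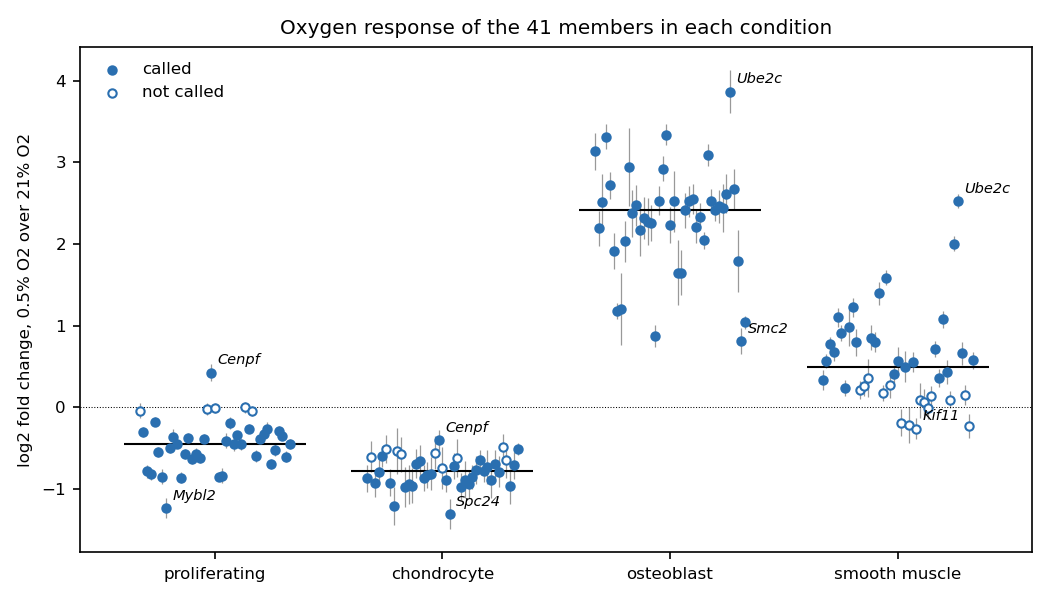
Log2 fold change of each member between 0.5% and 21% O2 in each condition, with its standard error (bars) and the median (line). Filled points were called. Medians are -0.45 in proliferating, -0.78 in chondrocyte, 2.41 in osteoblast and 0.50 in smooth muscle cultures, the last of which was -0.88 with library size alone.

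The rise in osteoblast cultures ran through every role. The proliferation antigen Mki67, which coats mitotic chromosomes, was measured at 8.52, 7.10, 8.10 and 13.5 CPM at 21% O2 and 84.4, 67.0 and 95.3 CPM at 0.5% O2, at 3.14 ± 0.23 (SE, adjusted p = 9.63e-06). Topoisomerase Top2a, which untangles sister chromatids, was measured at 16.3, 16.4, 16.3 and 28.1 CPM and 93.0, 74.2 and 97.6 CPM, at 2.19 ± 0.21. Replicate 4 at 21% O2 was the highest of its group in both, and still lay below each library at 0.5% O2. All 41 members were separated in this way, with each library at 0.5% O2 above each at 21% O2, as were 29.4% of all genes, while 28.7% of all genes were separated in the other direction.

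Among cyclins and their kinase, Ccnb1 encodes the cyclin whose destruction ends mitosis. It was measured at 3.11, 2.25, 2.81 and 3.49 CPM at 21% O2 and 27.8, 27.8 and 32.1 CPM at 0.5% O2, 9.97-fold higher, at 3.32 ± 0.15 (SE, adjusted p = 4.95e-07). Its partner kinase Cdk1 was measured at 9.22, 7.06, 8.07 and 14.3 CPM and 33.8, 34.2 and 41.6 CPM, at 1.91 ± 0.23, the smallest difference of the 4 genes in this role. Ccna2 (2.52 ± 0.35) and Ccnb2 (2.72 ± 0.16) lay between them.

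The transcription factors had small differences. Foxm1 was measured at 11.5, 11.6, 13.2 and 11.6 CPM at 21% O2 and 27.6, 25.8 and 28.3 CPM at 0.5% O2, at 1.18 ± 0.10 (SE, adjusted p = 1.18e-05). Mybl2 was measured at 0.524, 0.828, 1.12 and 2.40 CPM and 2.98, 2.85 and 2.71 CPM, at 1.21 ± 0.44 (SE, adjusted p = 0.0424). The groups did not overlap for either gene, as for 29.4% of all genes in that direction, although Mybl2 replicate 4 at 21% O2 came close to the 0.5% O2 libraries.

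Mitotic kinases rose by 2.03 to 2.95 on the log2 scale. Plk1, a kinase of mitotic entry, spindle assembly and cytokinesis, was measured at 2.10, 1.46, 1.66 and 3.17 CPM and 13.0, 10.1 and 12.1 CPM, at 2.47 ± 0.25. Bub1 was measured at 0.733, 0.513, 1.25 and 2.88 CPM and 10.9, 9.76 and 11.1 CPM, at 2.95 ± 0.48, with the largest standard error of any member. In the chromosomal passenger complex, which corrects faulty attachments, the kinase Aurkb was measured at 1.33, 1.89, 1.69 and 3.04 CPM and 10.6, 10.1 and 9.29 CPM, at 2.32 ± 0.25. Its partner Birc5 (survivin) was measured at 1.47, 1.81, 1.86 and 3.72 CPM and 10.7, 10.2 and 11.5 CPM, at 2.27 ± 0.29. The scaffold of that complex, Incenp, differed less, with 10.6, 11.3, 13.1 and 14.9 CPM and 24.1, 21.9 and 22.6 CPM, at 0.87 ± 0.13. Like all 41 members, these 5 genes did not overlap between oxygen levels, where 29.4% of all genes were separated in that direction.

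At the centromere, Cenpa, the histone variant on which the kinetochore is built, was measured at 2.79, 2.56, 3.08 and 2.47 CPM and 13.7, 13.6 and 20.0 CPM, at 2.53 ± 0.18. Ndc80, which with Nuf2, Spc24 and Spc25 forms the microtubule-binding complex of the outer kinetochore, was measured at 1.71, 1.85, 1.93 and 2.85 CPM and 11.1, 7.80 and 10.6 CPM, at 2.23 ± 0.22. Spc24 was measured at 0.908, 1.10, 1.19 and 2.95 CPM and 5.57, 3.54 and 5.49 CPM, at 1.65 ± 0.40. Within the 4 genes of that complex the differences thus ran from 1.65 (Spc25) and 1.65 (Spc24) to 2.53 (Nuf2). Cenpf had the largest difference of the centromere and kinetochore genes, from 5.24, 4.49, 3.80 and 3.84 CPM to 42.5, 41.3 and 48.3 CPM, at 3.34 ± 0.13 (SE, adjusted p = 2.55e-07).

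Spindle and cytokinesis genes moved by similar amounts. The 6 spindle motor and microtubule genes rose by 2.04 to 2.55, among them Kif11, the motor that separates the spindle poles, from 4.58, 4.22, 4.14 and 6.98 CPM to 27.9, 26.8 and 31.6 CPM. The 5 central spindle and cytokinesis genes rose by 2.42 to 3.09. Kif20a, a kinesin of the central spindle, went from 6.95, 5.80, 6.98 and 6.37 CPM to 33.6, 30.3 and 40.9 CPM, and Anln from 7.82, 7.21, 8.27 and 10.1 CPM to 71.8, 64.0 and 78.3 CPM. In all 3 genes each 0.5% O2 library was above each 21% O2 library, as in 29.4% of all genes.

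The partners of the anaphase-promoting complex and condensin gave the ends of the range. Ube2c was measured at 22.6, 25.6 and 31.9 CPM at 0.5% O2 and, as given above, at 2.88 CPM or less at 21% O2, a 14.6-fold difference. Cdc20 was measured at 2.79, 2.17, 3.39 and 4.20 CPM and 15.9, 17.0 and 25.1 CPM, at 2.62 ± 0.24. Of the condensin genes, the ATPase subunits differed least, Smc2 with 11.5, 12.1, 13.5 and 17.4 CPM and 27.2, 21.4 and 23.4 CPM and Smc4 with 58.2, 56.7, 56.1 and 65.2 CPM and 124, 114 and 127 CPM. The subunits found only in condensin I differed more, Ncaph at 1.79 ± 0.38 and Ncapg at 2.68 ± 0.24. Even so, the median member at 0.5% O2 stood at 21.6% of the proliferating level at the same oxygen level, between 13.1% (Ncapg) and 45.6% (Smc4).

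Other RNAs moved with the same contrast. The 10 osteoblast markers summed to 6711 to 10512 CPM at 21% O2 and to 13682 to 15613 CPM at 0.5% O2, with 7 of 9 tested higher and none lower, beside 27.0% of all genes higher and 27.3% lower. The 10 smooth muscle markers summed to 3689 to 5231 CPM at 21% O2 and 2229 to 2512 CPM at 0.5% O2, and the 7 adipocyte markers to 9.23 to 12.3 CPM and 54.9 to 59.7 CPM, with Adipoq and Lep at 0 in both. Beside the same shares of all genes, 6 of 9 smooth muscle markers tested were lower and none higher, and of the adipocyte markers 2 of 3 tested were higher and 1, Lpl, lower. The 10 chondrocyte markers summed to between 193 and 1593 CPM among the 4 libraries at 21% O2, a wide spread within that group, and to 615 to 649 CPM at 0.5% O2, and none of 8 tested was called. The mitochondrial ribosomal RNAs took 0.0297 to 0.0514% of counts at 21% O2 and 0.0769 to 0.0854% at 0.5% O2, and in proliferating cells 0.0252 to 0.0268% and 0.0817 to 0.0889%. Removal of mitochondrial genes and RNAs without a poly-A tail moved the median oxygen response of the members by less than 1 SD between replicates in osteoblast and proliferating cells. Beyond this removal, the part of these differences in the mitotic results was not tested.

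In the libraries labelled smooth muscle at 0.5% O2, 26 of 41 members were higher than at 21% O2, against 35.4% of all genes, and none was lower, against 40.2%, with a median of 0.50 that turned to -0.88 with library size alone. The differences were uneven. Ube2c was measured at 25.6, 23.9, 25.9 and 24.1 CPM at 21% O2 and 138, 145 and 128 CPM at 0.5% O2, at 2.53 ± 0.08 (SE, adjusted p = 9.15e-13). Cdc20 was measured at 29.0, 24.7, 25.3 and 27.4 CPM and 111, 101 and 94.4 CPM, at 2.00 ± 0.09 (SE, adjusted p = 4.46e-11). Neither gene overlapped between oxygen levels, as for 33.2% of all genes in that direction, and 41.9% in the other. Cenpa (1.59 ± 0.09), Cdca8 (1.40 ± 0.14), Aurka (1.22 ± 0.12), Ccnb2 (1.10 ± 0.11) and Kif20a (1.08 ± 0.10) also rose by at least 1 on the log2 scale, which 23.5% of all genes did. Kif11 had the lowest value at -0.26 ± 0.13 (SE, adjusted p = 0.0844), with 51.4, 45.0, 44.2 and 38.3 CPM and 37.9, 28.1 and 40.7 CPM, and was not called. Only 1 of the 6 spindle motor and microtubule genes was called, against 4 of 4 cyclin and CDK1 genes. The difference between these roles was not tested. Without replicate 4 at 21% O2, 1 member was called lower, and without replicate 3 at 0.5% O2, 3 were.

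The direction in smooth muscle cultures depended on scaling. With library size alone the median of the members was -0.88 and that of all genes -1.49, so the members stood 0.61 above all genes, as they stood 0.62 above them with TMM. A change of scaling moves all genes of a comparison by about the same amount, so this distance could not differ between the scalings. In the same comparison the log2 fold change fell with exon length over all genes (Spearman's rho -0.334 over 14903 genes, and -0.290 over the 41 members, both descriptions across genes of the same libraries). With genes split into 5 bins of length, the median was 0.97 in the shortest bin and -0.68 in the longest. The members with at most the median exon length of 4919 bases had a median of 0.67 and the longer ones 0.42. In osteoblast cultures rho with length was 0.0562 over all genes and 0.166 over the members. With mitochondrial genes and RNAs without a poly-A tail removed from the counts, under TMM, the median of all genes was -0.12, as with them kept. The median of the members moved by less than 1 SD between replicates. Beyond this removal, the part of exon length and of mitochondrial ribosomal RNA in the smooth muscle result was not tested.

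**Figure D5:**
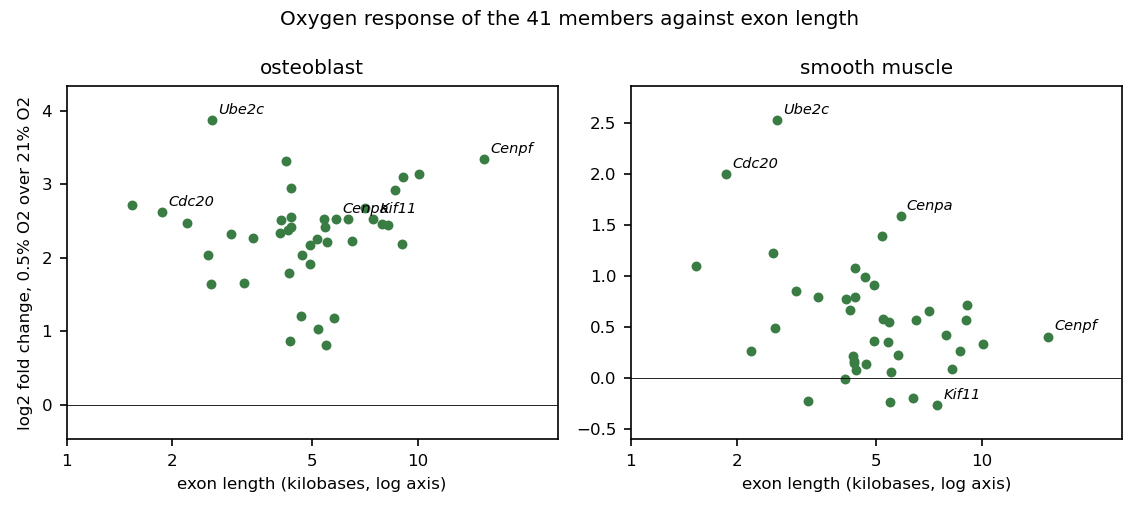
Log2 fold change between 0.5% and 21% O2 against exon length (log axis) for the 41 members in osteoblast (left) and smooth muscle (right) cultures, each point a gene. In smooth muscle cultures Ube2c (2.53) and Cdc20 (2.00) lie at the short end, and in osteoblast cultures the longest member, Cenpf, has a value of 3.34.

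The size of the response to oxygen was compared between conditions with interaction terms, each from 1 model of 4 groups. Between osteoblast and proliferating cells the response differed in 41 of 41 members, all in the higher direction, against 28.9% of all genes higher and 25.3% lower, with a median of 2.85, from Smc2 at 1.46 ± 0.18 (SE, adjusted p = 5.58e-06) to Ube2c at 4.43 ± 0.26 (SE, adjusted p = 9.07e-09). Between osteoblast and chondrocyte cultures it differed in 41 of 41, against 20.1% of all genes higher and 17.7% lower, with a median of 3.15, from Smc2 at 1.52 ± 0.24 (SE, adjusted p = 0.00019) to Ube2c at 4.35 ± 0.32 (SE, adjusted p = 3.3e-07). Between smooth muscle and proliferating cells it differed in 35 of 41, all higher, against 34.9% of all genes higher and 35.5% lower, with a median of 0.96, from Cenpf at 0.02 ± 0.15 to Ube2c at 3.09 ± 0.11 (SE, adjusted p = 3.66e-16). With library size alone that median was -0.37 and the median of all genes -1.37. Between chondrocyte and proliferating cells 7 of 41 members had a lower response, against 21.9% of all genes, and none a higher one, against 21.6%. They were Nusap1 at -0.84 ± 0.17 (SE, adjusted p = 0.000623), Mki67, Cenpf, Ndc80, Ncaph, Anln and Ccnb2. The count was 27 without chondrocyte replicate 4 at 21% O2 and 4 without proliferating replicate 3 at 0.5% O2. It was 25 with replicates 1 to 3 of every group, so how many chondrocyte responses differ from those of proliferating cells is not settled by these fits. These terms reuse the groups of the pairwise comparisons and are not independent of them or of each other.

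Genes outside the 41 were read from lists of the same pathway. Of 65 further mitotic genes, all 65 fell in osteoblast cultures at 21% O2, against 37.8% of all genes, with a median of -4.32, and 49 rose and 2 fell with low oxygen in osteoblast cultures, with a median of 1.72 against -0.03 for all genes tested, of which 27.0% rose and 27.3% fell. The spindle protein Aspm had the largest rise at 3.17, and the checkpoint protein Mad1l1 the largest fall at -0.37. Of 34 DNA replication genes, which act earlier in the cycle, all 34 fell in osteoblast cultures at 21% O2, against 37.8% of all genes, with a median of -3.23, and 8 rose and 2 fell with low oxygen there, with a median of 0.27, so the share that rose did not exceed the 27.0% of all genes. The ribonucleotide reductase subunit Rrm2 rose most at 3.02 and the single-strand binding subunit Rpa2 had the largest fall at -0.70. In proliferating cells at 0.5% O2 33 of 34 replication genes were lower, against 32.3% of all genes, with a median of -1.18, beside -0.45 for the 41 members. The difference between the lists was not tested. Ccne1, the cyclin of entry into S phase, had the largest fall at -2.35.

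Regulators of these genes did not move as 1 block. Of 15 genes of the DREAM, MuvB and RB complexes with the atypical E2F repressors E2f7 and E2f8, 4 rose and 9 fell in osteoblast cultures at 21% O2, where 40.9% of all genes rose and 37.8% fell, with Rbl2, an RB-family subunit of DREAM, highest at 1.83 and E2f8 lowest at -5.57. With low oxygen in osteoblast cultures 5 of the 15 rose and none fell, against 27.0% and 27.3% of all genes, E2f7 most at 2.04, while Rbl2 was 119.7 ± 16.8 CPM (SD, n = 4) at 21% O2 and 119 ± 2.37 CPM (SD, n = 3) at 0.5% O2 and was not called. Of 12 CDK inhibitors, D cyclins and their kinases, 10 were tested in osteoblast cultures. Cdkn1c, an inhibitor of CDKs, had the largest rise of these at 21% O2, from 3.08 ± 0.390 CPM (SD, n = 4) in proliferating cells to 107 ± 20.2 CPM (SD, n = 4), or 5.18 on the log2 scale, and Cdk6 the largest fall at -3.67. With low oxygen in osteoblast cultures 7 of these 10 rose and 2 fell, against the same shares of all genes. Cdkn1a, which encodes the inhibitor p21, rose most, from 109.8 ± 10.1 CPM (SD, n = 4) to 537 ± 109 CPM (SD, n = 3), a log2 fold change of 2.29, and Cdkn1c had the largest fall at -0.50.

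Across the 28 libraries the members moved together. Over the 820 pairs of members, the correlation of log2 (CPM + 0.5) had a median of 0.970, between 0.820 and 0.997. For deviations from the group means the median was 0.675, between -0.131 and 0.956. Smc4, Mybl2 and Smc2 had the lowest median correlation with the other members over the 28 libraries, at 0.909, 0.927 and 0.937. The libraries share a cell line and differ in depth, so these are descriptions. Counts of some members are uncertain, because whether the counting used strand is not given in the sources used here. By GENCODE vM21, a gene on the opposite strand shares 29.3% of the exon bases of Kif20a (Cdc23), 22.8% of Ube2c (Tnnc2), 15.1% of Kif4 (Pdzd11), 13.4% of Ncapg (Lcorl), 12.5% of Ccna2 (Exosc9) and 11.1% of Prc1 (Rccd1). Ccnb1, Ccnb2 and Kif4 also have processed pseudogene copies that could take some of their reads.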

How the data were processed

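Libraries of poly-A RNA from 28 samples were made with a stranded kit, per the labels. The authors deposited whole-number read counts per gene for 54429 genes. The submitters' processing notes name HISAT2 2.0.5, StringTie 1.3.3b, featureCounts 1.5.0-p3 and mm10, without their roles or order. The annotation and strand setting of the counting are not given in the sources used here. The authors' tables of comparisons were not used.

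Groups came from the sample labels. Counts were tested with edgeR 4.0.16 (quasi-likelihood test, two-sided, robust, TMM scaling, filterByExpr with a minimum count of 10 and a minimum total of 15) under R 4.3.3, on the libraries of each of 12 pairs of groups and, for 4 interaction terms, of 4 groups. P-values were adjusted by Benjamini-Hochberg over all genes tested. Standard errors came from the log2 fold change and its F statistic. CPM were scaled by TMM over the 28 libraries, and 0.5 was added before logs. The test was checked on simulated counts. Gene positions and exon lengths came from GENCODE vM21, and promoters from RefSeq GRCm38.p6.

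Alternatives were limma 3.58.1 (voom), DESeq2 1.42.0, its size factors, library size alone, no filter, at least 10 counts in every library, all 8 groups in 1 model, a replicate block, replicates 1 to 3 of every group, removal of mitochondrial genes and RNAs without a poly-A tail, and leaving out each library. Any of the 41 members could be named. Values in every library were set for 20 members and for those with the largest and smallest change in each comparison, and other genes were named by the largest change each way in a list. The members and lists were chosen with earlier results of these data known.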

Additional observations from a re-analysis of the deposited data

Results flagged for a closer look

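In the groups of 4 libraries, 84 sets of values were checked for a library far from the other 3, and 17 held one, where chance gives about 1 in 20. The sets share libraries, so they are not independent. In proliferating cells at 21% O2, replicate 4 stood below the others, with a summed level of the 41 members of 5402 CPM and with Foxm1 at 146 CPM, Mybl2 at 34.4 CPM, Ndc80 at 49.2 CPM, Spc24 at 26.1 CPM, Kif11 at 142 CPM, Ube2c at 154 CPM and Smc4 at 331 CPM. In osteoblast cultures at 21% O2, replicate 4 stood above the others, with a summed level of 322 CPM and with Top2a at 28.1 CPM, Spc24 at 2.95 CPM, Kif11 at 6.98 CPM and Ube2c at 2.88 CPM. Foxm1 replicate 3 of that group, at 13.2 CPM, also stood above the others. In chondrocyte cultures at 21% O2, replicate 4 stood below the others for Ccnb1 at 35.9 CPM and Plk1 at 19.5 CPM. In smooth muscle cultures at 21% O2, Foxm1 replicate 1 stood above the others at 43.1 CPM.

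The response to oxygen differed between conditions by interaction terms. It was higher than that of proliferating cells in 41 of 41 members in osteoblast cultures, against 28.9% of all genes. In smooth muscle cultures it was higher in 35 of 41, against 34.9% of all genes, but the median of 0.96 turned to -0.37 with library size alone, where the median of all genes was -1.37. In chondrocyte cultures it was lower in 7 of 41, against 21.9% of all genes. That count ranged from 4 to 27 over the alternatives: it was 15 with DESeq2, 16 with a replicate block, 25 with replicates 1 to 3 of every group, and 27 without chondrocyte replicate 4 at 21% O2, where 3361 of 15244 genes were called lower. In osteoblast cultures it was higher than in chondrocyte cultures in 41 of 41, against 20.1% of all genes.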

How the results depend on the processing

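Under alternatives other than leaving out a library, 151 of 156 total counts of members called stayed within 1.5 times, and 144 of 156 median changes moved by less than 1 SD between replicates. With each library left out, 136 of 140 counts and 137 of 140 medians did. Counts in 1 direction are not in this tally: lower calls between osteoblast and chondrocyte cultures at 0.5% O2 were 4 and 12 without osteoblast replicates 2 and 3, against 7.

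With library size alone, medians were -2.10 (chondrocyte) at 21% O2 and -2.49 (chondrocyte), -2.45 (osteoblast) and -2.52 (smooth muscle) at 0.5% O2, all relative to proliferating cells. The median response to oxygen in smooth muscle cultures turned to -0.88 and its interaction term to -0.37. In that response Anln (-0.65), Aurkb (-0.51), Birc5 (-0.57), Bub1 (-0.58), Ccnb1 (-0.70), Cdk1 (-0.46), Foxm1 (-1.14), Incenp (-1.20), Kif20a (-0.29), Mki67 (-1.03), Mybl2 (-0.38), Ndc80 (-0.79), Plk1 (-1.11), Smc4 (-0.79), Spc24 (-0.88) and Top2a (-0.81) changed sign. In its interaction term Anln (-0.53), Aurkb (-0.057), Bub1 (-0.14), Cenpf (-1.32), Foxm1 (-0.21), Incenp (-0.51), Kif11 (-1.10), Mki67 (-0.91), Ndc80 (-0.71), Plk1 (-0.17), Smc4 (-0.27) and Top2a (-0.43) did. Both lists cover only the members chosen for values in every library and those with the largest and smallest change in the comparison. With TMM all 41 interaction values were positive, the lowest 0.02 (Cenpf). The median of -0.37 thus means that more members changed sign in the interaction than are listed. Against proliferating cells at 0.5% O2, Cdc20 (-1.10) and Ube2c (-0.97) changed sign with library size alone. With this scaling the median of all genes was -1.49 in that response (-0.12 with TMM), -1.35 against proliferating cells at 0.5% O2 (-0.07 with TMM) and -1.37 in the interaction (-0.04 with TMM). The share of called genes that were higher went from 46.8% to 15.6% in the smooth muscle response, from 48.3% to 15.0% and from 49.6% to 16.6% in the other 2. It went from 49.6% to 36.9% in the osteoblast response, from 46.9% to 31.8% in the chondrocyte response, from 50.3% to 34.7% (chondrocyte at 21% O2), from 50.2% to 31.8% (chondrocyte at 0.5% O2), from 50.8% to 38.2% (osteoblast at 0.5% O2) and from 52.0% to 65.7% (osteoblast against chondrocyte at 21% O2).

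With replicates 1 to 3 of every group, the osteoblast median at 21% O2 was -5.30, the osteoblast interaction medians 3.10 (with proliferating) and 3.48 (with chondrocyte), and 25 members had a chondrocyte interaction. That count was 15 with DESeq2 and 4 with all 8 groups in 1 model. The replicate block gave 16. Over all genes replicate numbers showed no pairing: correlations of same-numbered deviations were -0.239 to 0.118, over 0.1 for all pairs in 0 of 12 comparisons. Among the members, replicate 4 at 21% O2 was the lowest of its group for 41 in proliferating, 41 in chondrocyte and 25 in smooth muscle cultures. In osteoblast cultures it was the highest for 33. Only groups at 21% O2 held a replicate 4, and whether it was a batch was not tested. With no filter, the smooth muscle median at 0.5% O2 was -1.34 (-1.36 with all 8 groups in 1 model), its oxygen response 0.38, and 21 members were called in the chondrocyte response. The cause of these shifts was not tested.

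With each library left out, the chondrocyte median at 0.5% O2 was -2.23 to -2.08, the chondrocyte response called 19 to 41 members, and the chondrocyte interaction 4 to 27. The interaction median was 2.74 to 3.06 for osteoblast and 0.85 to 1.00 for smooth muscle cultures. Between osteoblast and chondrocyte cultures at 0.5% O2, 8 to 15 members were called and the median was -0.20 to 0.00. Depth limits the lowest members: Bub1 had 13 to 90 reads in osteoblast cultures at 21% O2. The call of Mybl2 in the osteoblast response was lost with library size alone, at 1.05.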
